A study of Mus musculus with 2 samples.

Results

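Keratin genes other than the wound keratins were described across the cell classes of mouse skin, in single-cell RNA libraries of skin injected with sitagliptin or with vehicle. The members were the genes named Krt and a number, without Krt6a, Krt6b, Krt16 and Krt17, that had at least 20 UMIs (unique molecular identifiers, each counting 1 captured transcript) over both libraries. They numbered 33 of the 53 keratin genes in the files, which hold 31053 genes in all. Of the other 20 keratin genes, 4 were the wound keratins and 16 had fewer than 20 UMIs. The gene with the most UMIs among those 16 was Krt87 with 17, and the member with the fewest was Krt25 with 21.

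The skin came from C57Bl6 mice of both sexes, 8 weeks old, that received an intradermal injection. The sitagliptin group received 100 ng sitagliptin, an inhibitor of the peptidase Dpp4, in 100 µl PBS, and the control group received PBS alone. The labels give a time of 48 h beside the skin processing, and they do not say how many animals made up a library. Each treatment was 1 library made on the 10x Chromium platform, so no difference between treatments has a replicate check, and none was tested. The letter in each library's deposited file names is the initial of the other treatment (S on the PBS-labelled library, P on the sitagliptin-labelled one). The libraries are therefore called by their labels, and every direction below would turn if they were exchanged.

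Keratins form the intermediate filaments of epithelial cells, and each filament is built from pairs of 1 acidic type I and 1 basic type II chain. Keratinocytes of the dividing basal layer of the epidermis make Krt5 and Krt14, and they switch to Krt1 and Krt10 as they leave that layer. Hair follicles, sebaceous glands and simple epithelia use other members, so the keratins of a cell are commonly read as a record of its layer and lineage. Of the members, 19 encode type I and 14 type II keratins. On chromosome 11 lie 18 of them and on chromosome 15 the other 15, since the type I gene Krt18 stands beside the type II genes.

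A barcode was kept as a cell when it held 500 or more genes and 1000 or more UMIs, with mitochondrial UMIs no higher than 10%. This left 5932 cells (56.7% of barcodes) in the PBS-labelled library and 18380 (83.2%) in the sitagliptin-labelled one. The libraries differed in depth, with medians of 6902.5 and 2197 UMIs per retained cell. They shared 75 barcodes, of which 46 and 65 were among the retained cells. Cells were clustered without any Krt gene and named from marker lists that hold none, so a keratin's level was not what placed a cell. Classes are named for the cells they resemble: basal-like (809 PBS-labelled and 954 sitagliptin-labelled cells), suprabasal-like (1064 and 4599), upper follicle-like (716 and 1537), outer root sheath or bulge-like (294 and 1978), dividing (769 and 1073) and sebocyte-like (64 and 101). Another 793 and 7770 cells stayed unnamed.

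The members held 3.76% of all UMIs of the named keratinocyte classes together in the PBS-labelled library (95% Clopper-Pearson interval 3.75 to 3.76) and 4.40% in the sitagliptin-labelled one (4.40 to 4.41). By class their share was highest in suprabasal-like cells (5.27% and 5.76%) and lowest in sebocyte-like cells (0.857% and 1.27%). Basal-like cells had 4.10% and 4.62%, upper follicle-like cells 2.17% and 2.26%, and outer root sheath or bulge-like cells 2.70% and 3.25%. The order of these classes was the same in both libraries. Dividing cells, at 3.14% and 3.20%, stood above outer root sheath or bulge-like cells in the PBS-labelled library and below them in the other. Of all member UMIs, 96.3% came from 6 genes, Krt10, Krt14, Krt77, Krt5, Krt1 and Krt15, and 17 members had fewer than 100 UMIs. Intervals here and below cover counting error only, and reads can share a source that they do not count.

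Keratin transcripts were also counted in cells that should not make them, and this background differed between the libraries. In the non-epithelial classes together (fibroblast-, immune-, endothelial-, pericyte- and muscle-like cells without the dendritic or Langerhans-like ones, 1328 and 284 cells) the members made up 1.05% of UMIs in the PBS-labelled library and 3.0% in the sitagliptin-labelled one. That was 59.0 and 96.5 keratin UMIs per cell. Fibroblast-like cells had 52.7 and 107 per cell, but macrophage-like cells 56.0 and 54.3, so the count per cell was not higher in each class. The mix also differed, with 495 and 58 fibroblast-like and 587 and 47 macrophage-like cells. Fibroblast-like cells alone had 0.856% and 3.75%, and macrophage-like cells 0.979% and 1.75%. T or innate lymphoid-like cells (99 and 45 cells) differed less, with 2.72% and 2.90%, and there Krt10 (6898 and 3465 CPM, ratio 0.502) and Krt77 (4818 and 2319 CPM, ratio 0.481) were lower in the sitagliptin-labelled library. Levels are counts scaled to 1000000 UMIs of a class (CPM). A level that lies at or below the non-epithelial level of the same library is not told apart from background here. The rule compares CPM and does not show that such a level is background. It takes the non-epithelial classes together, and single classes differed. Sitagliptin-labelled Krt10 was at 9085 CPM in fibroblast-like and 2649 CPM in macrophage-like cells. Non-epithelial cells held fewer UMIs per cell (means of 5610.3 and 3215) than the named keratinocyte classes together (10849.9 and 5979). Cells of a dendritic or Langerhans-like cluster (95 and 84 cells), which neighbour keratinocytes in the epidermis, had higher keratin shares. These were 3.64% and 4.54%, with Krt10 at 10429 and 13599 CPM. Their median UMI counts, 15803 and 14216, were also above those of the libraries, and the part of doublets in this was not tested.

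Several genes whose levels ran together over clusters are shown with their promoters. Across the 21 clusters compared in each library, Pearson's r between the levels of Krt10 and Krt77 was 0.98 in both, between Krt10 and Krt1 0.97 in both, and between Krt10 and Krt78 0.94 and 0.98, the PBS-labelled library being named first, as in the other pairs of library values. These are descriptions, since the clusters of a library share its preparation, its background and many of the same genes. The 250 bases upstream of the annotated start in RefSeq (GRCm38.p6) were read for the suprabasal keratins Krt10 (chr11:99389365-99389614), Krt77 (chr15:101869706-101869955) and Krt78 (chr15:101954288-101954537), and for the basal keratin Krt5 (chr15:101712906-101713155) beside them. All 4 lie on the minus strand and are written 5′ to 3′ on that strand. Capitals mark matches to TATAAA or CCAAT on either strand, so that CCAAT on the other strand reads ATTGG.
Krt10: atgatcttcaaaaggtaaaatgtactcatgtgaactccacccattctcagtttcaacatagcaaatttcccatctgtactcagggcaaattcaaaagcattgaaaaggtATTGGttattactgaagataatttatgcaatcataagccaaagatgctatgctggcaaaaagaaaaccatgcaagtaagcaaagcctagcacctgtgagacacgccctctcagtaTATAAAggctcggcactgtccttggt
Krt77: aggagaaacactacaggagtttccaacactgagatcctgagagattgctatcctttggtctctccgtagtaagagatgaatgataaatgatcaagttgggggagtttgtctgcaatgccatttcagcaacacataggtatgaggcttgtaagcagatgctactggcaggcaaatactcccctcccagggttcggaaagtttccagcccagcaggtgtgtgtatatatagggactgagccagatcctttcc
Krt78: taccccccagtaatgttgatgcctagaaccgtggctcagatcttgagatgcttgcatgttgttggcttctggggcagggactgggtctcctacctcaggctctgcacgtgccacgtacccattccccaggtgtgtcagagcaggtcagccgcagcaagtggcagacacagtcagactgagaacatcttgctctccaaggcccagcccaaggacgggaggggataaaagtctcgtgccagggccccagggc
Krt5: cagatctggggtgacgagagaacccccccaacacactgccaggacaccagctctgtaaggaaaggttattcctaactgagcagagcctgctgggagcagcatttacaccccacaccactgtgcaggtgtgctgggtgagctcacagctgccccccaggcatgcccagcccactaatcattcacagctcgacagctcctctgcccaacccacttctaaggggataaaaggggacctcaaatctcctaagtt
Krt10 had TATAAA at position -26 and a CCAAT match at position -141, counted from the start, and the windows of Krt77, Krt78 and Krt5 held neither word. The table had windows for 24 of the 33 members. TATAAA was in 37.5% of those 24 (9 windows) and in 12.4% of all 32817 promoter windows of the same length. CCAAT was in 41.7% against 33.8%, and GCCNNNGGC, a word that AP-2 factors bind, in 16.7% against 13.7%. TGANTCA, the word of AP-1 factors, was in 0 of 24 against 6.75%. A match is a run of letters, not a bound site, and a window without one says nothing of the factor.

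**Figure D1:**
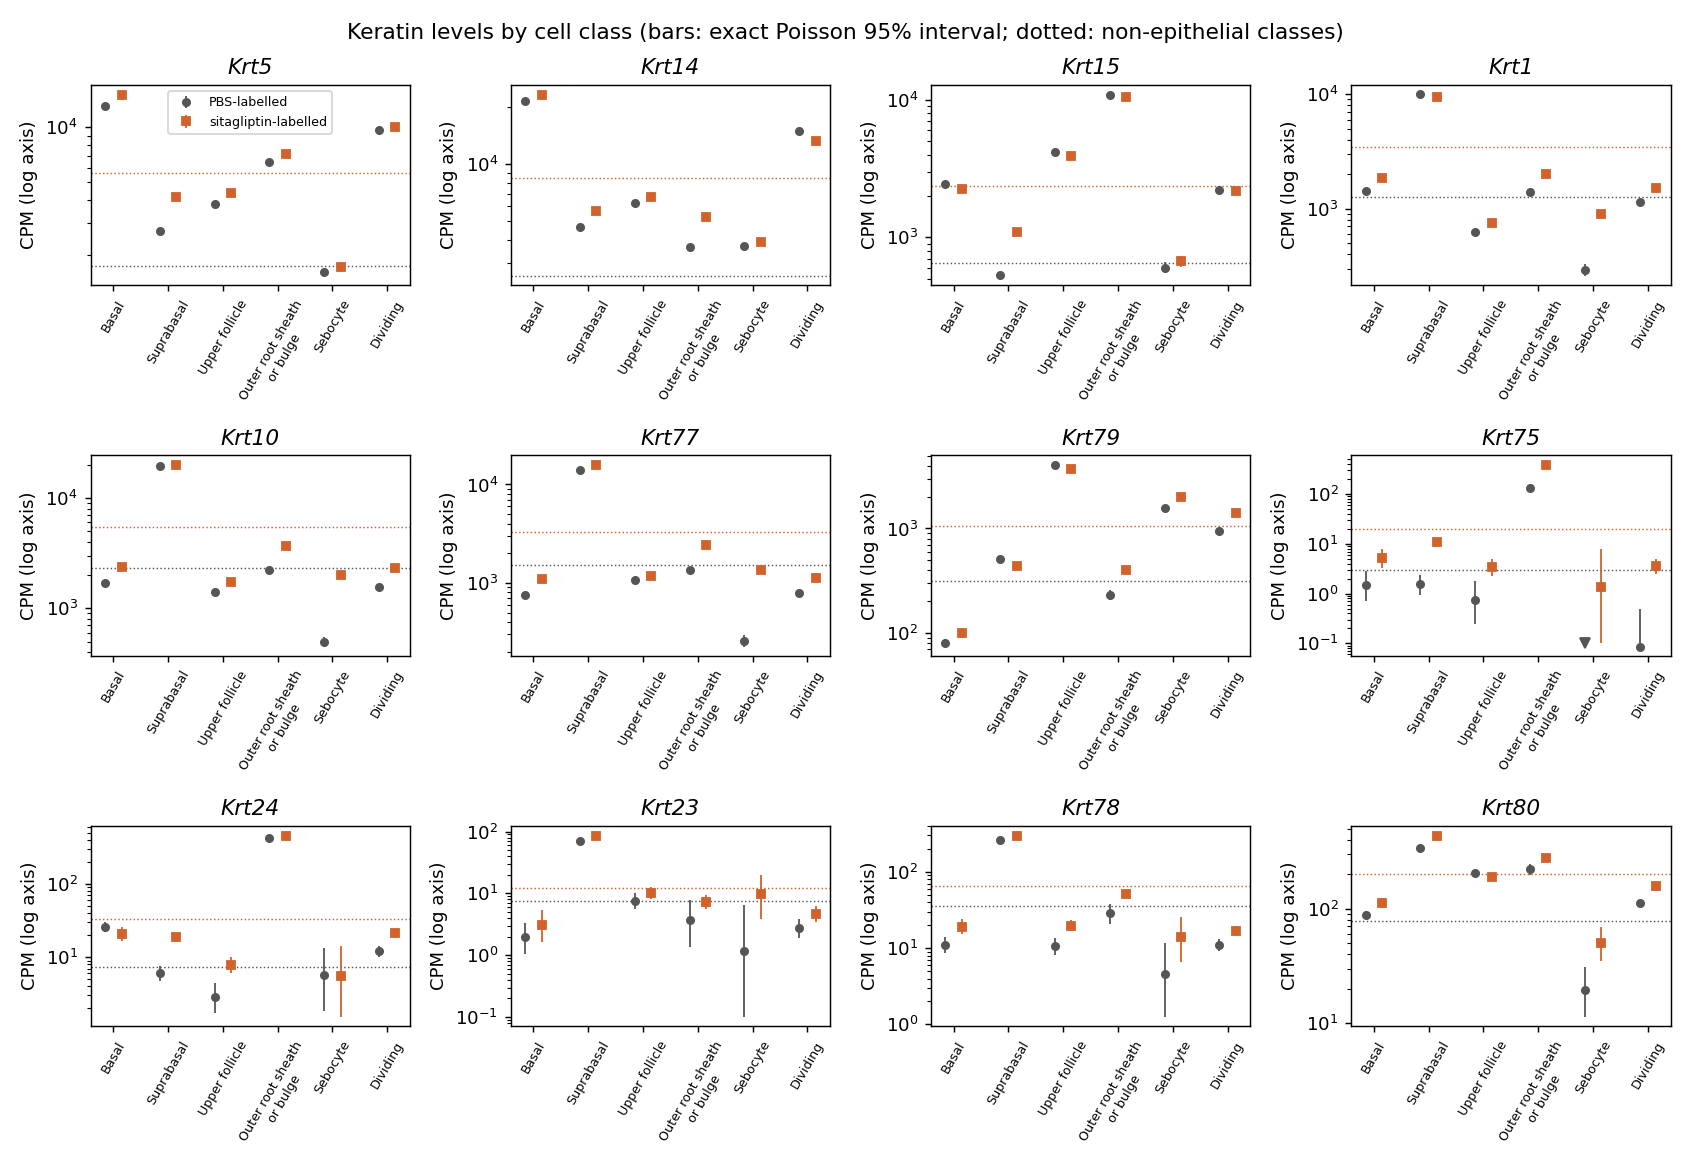
Levels of 12 keratin genes in CPM (log axis) in 6 cell classes, with grey circles for the PBS-labelled and orange squares for the sitagliptin-labelled library, bars for exact Poisson 95% intervals, a triangle for a level of 0 and dotted lines for the non-epithelial classes of each library. Each gene stands highest in the same class in both libraries, such as Krt10 at 19634 and 20058 CPM in suprabasal-like cells.

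The basal keratins were highest where their name places them. Krt14, the type I chain of the basal layer, was at 21461 CPM in PBS-labelled basal-like cells and 23319 CPM in sitagliptin-labelled ones, a ratio of 1.09 (1.08 to 1.10). Krt5, its type II partner, was at 12989.6 and 15035 CPM there, a ratio of 1.16 (1.15 to 1.17). Each of these levels lay above the non-epithelial level of its library, which for Krt14 was 2569.9 and 8452 CPM and for Krt5 was 1744 and 5601 CPM. Both genes stood near these levels in the dividing cluster whose second-best name was basal (cluster 7, 476 and 560 cells), with Krt14 at 20805 and 20376 CPM and Krt5 at 13231 and 14945 CPM. In the other dividing cluster, whose second-best name was upper follicle (cluster 8, 293 and 513 cells), Krt14 was at 7482 and 7459 CPM, beside 6253 and 6685 CPM in non-dividing upper follicle-like cells. Both of these sitagliptin-labelled levels lay below the non-epithelial 8452 CPM, and both PBS-labelled ones lay above the non-epithelial 2569.9 CPM. By CPM alone the sitagliptin-labelled levels cannot be told from background. The sitagliptin-labelled cells of cluster 8 and of the upper follicle-like class held more UMIs per cell (means of 11312 and 5294) than the non-epithelial ones (3215). The annotated 3′ end of Krt14 shares 17.2% of its 31-base words with Krt17 and Krt16, so its count and those of these wound keratins may not be fully separable. For Krt5 the share was 0. Among the keratinocyte classes compared, the largest Krt14 ratio was 1.44, in outer root sheath or bulge-like cells (3637 and 5246 CPM). The second of these levels lay below the non-epithelial 8452 CPM.

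Krt15, a type I keratin of the basal layer and of bulge stem cells, was highest in outer root sheath or bulge-like cells, at 10859 CPM in the PBS-labelled and 10413 CPM in the sitagliptin-labelled library. That was 2.58 and 2.67 times its level in upper follicle-like cells (4208 and 3903 CPM), the class next in order. Basal-like cells had 2433 and 2234 CPM, above the non-epithelial 651 CPM in the PBS-labelled library and below the 2346 CPM in the sitagliptin-labelled one. By CPM alone the second level cannot be told from background. In that library 954 basal-like cells held 9298 Krt15 UMIs, and 284 non-epithelial cells held 2142. In outer root sheath or bulge-like, upper follicle-like and basal-like cells the ratios were 0.959 (0.944 to 0.975), 0.928 (0.913 to 0.943) and 0.918 (0.895 to 0.942). All lay below 1 and within 1.5-fold.

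In basal-like cells 0 of 8 members with at least 20 UMIs and 50 CPM there were at least 1.5-fold apart between the libraries, against 2.31% of the 2987 genes that passed the same filter. Their median log2 ratio, with 1 CPM added to each level, was 0.32, and that of all those genes was 0. The largest ratios were those of suprabasal keratins, Krt77 at 762 and 1107 CPM (1.45, interval 1.40 to 1.51), Krt10 at 1692 and 2351 CPM (1.39, 1.35 to 1.43) and Krt1 at 1441 and 1867 CPM (1.30, 1.26 to 1.33). All but Krt1 in the PBS-labelled library lay below the non-epithelial levels, which were 1520.2 and 3311 CPM for Krt77, 2297 and 5467 CPM for Krt10, and 1277 and 3435 CPM for Krt1. After each cell was thinned to 1000 UMIs, 56.4% and 71.3% of basal-like cells had a Krt10 UMI (96.2% and 97.7% unthinned, at medians of 6879 and 3662 UMIs). In fibroblast- or macrophage-like cells it was 51.3% and 90.5% (91.5% and 100.0% unthinned, at medians of 4827 and 2223 UMIs). The suprabasal marker list moved with these values in basal-like cells, with 15 of its 16 genes higher in the sitagliptin-labelled library and its sum at 4862 and 5328 CPM. Its part in the keratin ratios was not tested.

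**Figure D2:**
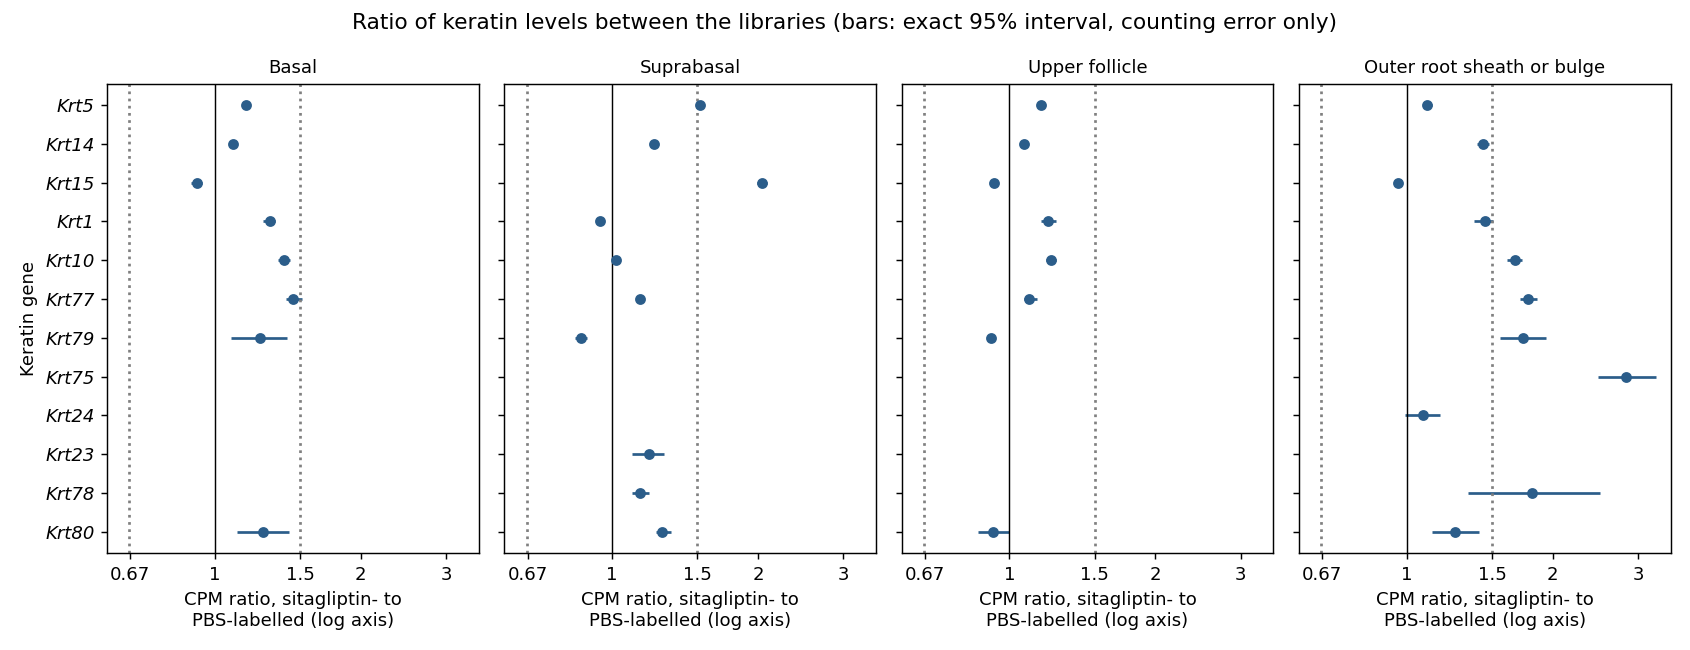
Ratio of each keratin's CPM in the sitagliptin-labelled to the PBS-labelled library (log axis) in 4 keratinocyte classes, for members that passed the filter there, with bars for exact 95% intervals and dotted lines at 1.5-fold. No ratio lies beyond the lower line, and those beyond the upper one are Krt15 and Krt5 in suprabasal-like cells and 5 members in outer root sheath or bulge-like cells.

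Suprabasal-like cells carried the keratins of differentiation at like levels in both libraries. Krt10, the type I chain that replaces Krt14, was at 19634 CPM in the PBS-labelled and 20058 CPM in the sitagliptin-labelled library, a ratio of 1.02 (1.02 to 1.03). Krt1, its type II partner, was at 9976 and 9439 CPM, a ratio of 0.946 (0.940 to 0.952). Krt77, a type II keratin of the same layers, was at 13937 and 15892 CPM, a ratio of 1.14 (1.13 to 1.15). Against the class next in order, Krt10 was 8.83 and 5.41 times as high, Krt1 6.92 and 4.69 times and Krt77 10.2 and 6.53 times, so the step was smaller in the sitagliptin-labelled library for each. Those lower levels, but for Krt1 in PBS-labelled basal-like cells, lay below the non-epithelial ones. Different clusters made up most of the class in the libraries, cluster 3 in the PBS-labelled one (687 of 1064 cells) and cluster 1 in the sitagliptin-labelled one (2576 of 4599 cells, against 25). Krt1 was lower in the sitagliptin-labelled library over the class as a whole, yet higher in each of the 3 clusters with at least 50 cells per library (ratios 1.05, 1.19 and 1.12).

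Those 3 clusters could be ordered by genes outside the keratin family. Mt4, a metallothionein of the differentiating epidermis, was at 1423 and 1399 CPM in cluster 3, 1005 and 922 CPM in cluster 9 (251 and 543 cells), and 539 and 653 CPM in cluster 14 (101 and 383 cells). Lor, which encodes the cornified envelope protein loricrin, was at 33.2 and 56.5, then 91.9 and 148, then 8005 and 6458 CPM. Along this order the keratins did not run alike. Krt1 went from 11423 through 9425 to 6946 CPM in the PBS-labelled library, and from 11950.1 through 11239.6 to 7753 CPM in the other. Krt77 went the opposite way, from 7143 through 20526 to 23154 CPM and from 8395 through 22349 to 23601 CPM. Krt10 was highest in the middle cluster, at 15431, 25169 and 22956 CPM in the PBS-labelled and 16424, 27206 and 23356 CPM in the sitagliptin-labelled library. The order of the 3 clusters was the same in both libraries for each of these genes. The clusters were made from other genes of the same cells, so these are descriptions with no test.

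**Figure D3:**
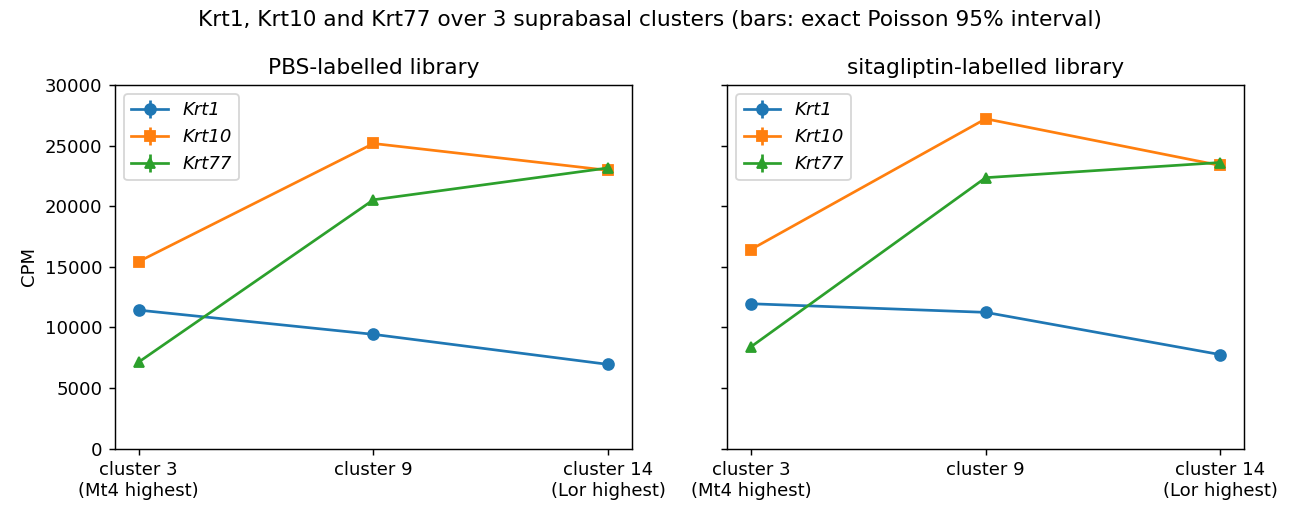
Levels of Krt1, Krt10 and Krt77 in CPM in 3 suprabasal-like clusters ordered from highest Mt4 to highest Lor, with 1 panel per library and bars for exact Poisson 95% intervals, most of them smaller than the points. In both panels Krt1 is lowest and Krt77 highest in cluster 14, while Krt10 is highest in cluster 9.

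The less abundant keratins of this class also differed in where they peaked. Krt23, a type I keratin, was highest in the cluster with most Lor, with 4.55, 40.7 and 365 CPM in the PBS-labelled and 8.59, 40.6 and 291 CPM in the sitagliptin-labelled library. Krt80, a type II keratin, followed the same order, at 231, 356 and 675 CPM and at 290.2, 439.9 and 746 CPM. Krt78, another type II keratin, was lowest in cluster 3 (138 and 187 CPM) and at similar levels in clusters 9 (410.1 and 427 CPM) and 14 (369 and 390.3 CPM). Over the class as a whole the ratios were 1.19 (1.10 to 1.28) for Krt23, 1.27 (1.23 to 1.32) for Krt80 and 1.14 (1.10 to 1.19) for Krt78. In cells thinned to 1000 UMIs, 20.5% and 19.1% of suprabasal-like cells had a Krt78 UMI (57.3% and 51.1% unthinned, at medians of 9548 and 3252 UMIs), against 1.66% and 8.57% of fibroblast- or macrophage-like cells (6.56% and 21.0% unthinned).

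In suprabasal-like cells 2 of 10 members were at least 1.5-fold apart, both higher in the sitagliptin-labelled library, against 3.57% of the 3025 genes that passed the filter (2.88% higher there). The median log2 ratio was 0.22 for the members and 0.02 for all. Krt15 was at 535 CPM in the PBS-labelled and 1092 CPM in the sitagliptin-labelled library (ratio 2.04, 1.99 to 2.09), and Krt5 at 2729 and 4161 CPM (1.52, 1.51 to 1.54). Neither exceeded the non-epithelial level in the sitagliptin-labelled library, which was 2346 CPM for Krt15 and 5601 CPM for Krt5. A Krt15 UMI was present in 31.4% and 67.2% of thinned suprabasal-like cells (69.2% and 91.3% unthinned) and in 18.9% and 80.0% of thinned fibroblast- or macrophage-like cells (44.9% and 89.5% unthinned). All 12 genes of the basal marker list were higher too, with sums of 1159 and 1660.3 CPM, and their part was not tested. Without cluster 1, which had 25 PBS-labelled cells, the ratios were 1.41 for Krt15 and 1.28 for Krt5, and neither call held. Without it Krt79 was lower, with a ratio of 0.556.

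Upper follicle-like cells, the cells around the mouth and the isthmus of a hair follicle, were marked by Krt79, a type II keratin of that region. It stood at 4050.3 CPM in the PBS-labelled and 3713 CPM in the sitagliptin-labelled library, 8.00 and 8.50 times its level in suprabasal-like cells, and a ratio of 0.917 (0.902 to 0.932) between the libraries. The dividing cluster with upper follicle as its second-best name had 2100.5 and 2521 CPM, and the sebocyte-like cluster 21 (30 and 67 cells) 2327 and 2586 CPM. The other sebocyte-like cluster (cluster 24, 34 and 34 cells) had 765 and 979.9 CPM, below the non-epithelial 1062 CPM in the sitagliptin-labelled library. A Krt79 UMI was found in 62.6% and 58.1% of thinned upper follicle-like cells (79.2% and 70.3% unthinned, at medians of 6409.5 and 3428 UMIs), against 7.49% and 36.2% of fibroblast- or macrophage-like cells (23.8% and 50.5% unthinned). Of 8 members that passed the filter 0 were at least 1.5-fold apart, against 2.04% of 3081 genes, with median log2 ratios of 0.12 for the members and -0.02 for all. The largest ratio was that of Krt10, at 1414 and 1727 CPM (1.22), and both levels lay below the non-epithelial ones.

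Outer root sheath or bulge-like cells held the follicle keratins Krt24 and Krt75 besides Krt15. Krt24, a type I keratin, was at 422 CPM in the PBS-labelled and 455 CPM in the sitagliptin-labelled library (ratio 1.08, 0.992 to 1.17). That was 16.2 and 21.8 times the level in basal-like cells, the class next in order, and the non-epithelial levels were 7.38 and 32.9 CPM. A Krt24 UMI was found in 24.8% and 26.1% of thinned cells (45.6% and 44.3% unthinned, at medians of 3636 and 2189.5 UMIs) and in 0.370% and 7.62% of thinned fibroblast- or macrophage-like cells (2.31% and 13.3% unthinned). Krt75, a type II keratin of the companion layer between the outer and inner root sheath, was at 133 and 379 CPM (ratio 2.84, 2.48 to 3.27), with 2.95 and 19.7 CPM in the non-epithelial classes. That ratio was 1.13, and no longer past 1.5-fold, with clusters weighted equally, a setting that takes clusters with at least 20 cells per library and so leaves out cluster 13. It was found in 4.08% and 11.1% of thinned cells (10.9% and 20.8% unthinned), against 0.277% and 1.90% (0.555% and 5.71% unthinned) of fibroblast- or macrophage-like cells.

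The 4 clusters of this class used these keratins differently. Krt15 was highest in cluster 16 (60 and 327 cells, led by Ramp1 and Fgf18), at 19112 and 17068 CPM. Cluster 6 (147 and 948 cells, led by Angptl7 and Ltbp2, with Lgr5 further down) came next, at 12241 and 11059.9 CPM. Cluster 13 (18 and 482 cells, led by Ttr, Wfdc3 and Arg1) had 8819.8 and 9730.1 CPM. Cluster 18 (69 and 221 cells, led by Aspn and Bdnf) had 2337 and 2999.9 CPM. Krt24 was highest in cluster 6, at 778 and 729 CPM, then in cluster 13, at 359 and 378 CPM, and it was at 96.5 and 61.9 CPM in cluster 16. Krt75 was highest in cluster 13, at 554 CPM (165 UMIs) and 879 CPM (2660 UMIs), against 25.4 and 65.7 CPM in cluster 6, 79.9 and 80.2 CPM in cluster 16 and 35.9 and 13.6 CPM in cluster 18. The orders of the clusters by Krt15 and Krt24 were the same in both libraries, and cluster 13 led by Krt75 in both. A single cell held 40 of the 315 Krt75 UMIs of the PBS-labelled library (12.7%).

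**Figure D4:**
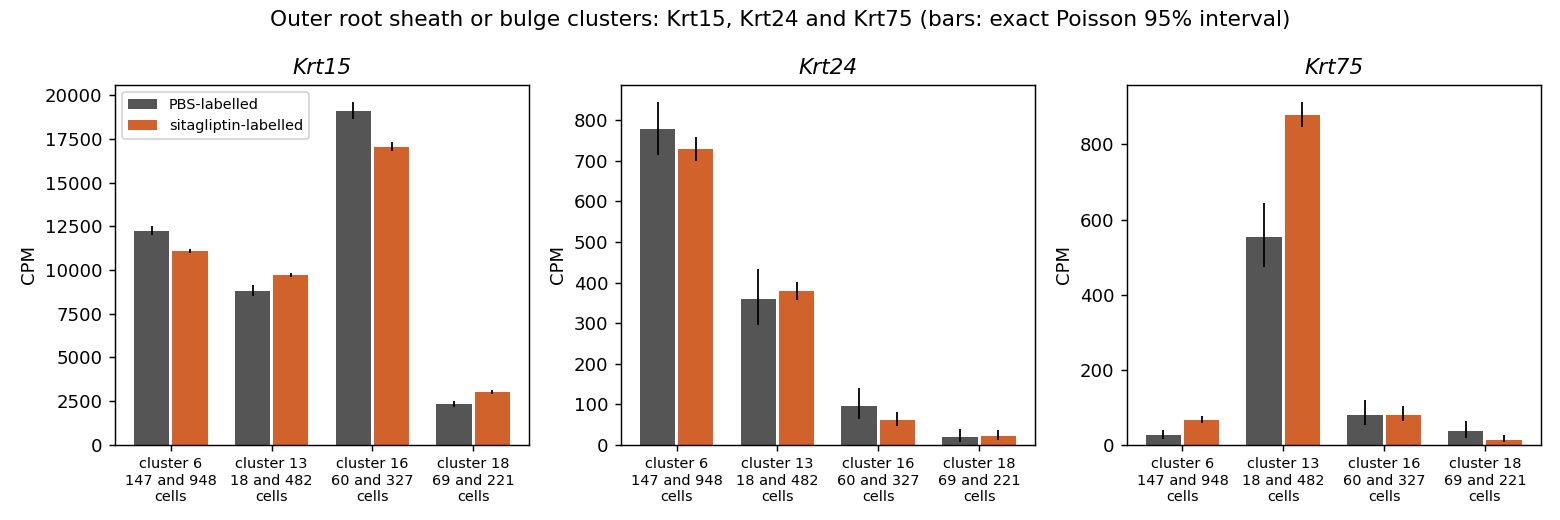
Levels of Krt15, Krt24 and Krt75 in CPM in 4 outer root sheath or bulge-like clusters, with grey bars for the PBS-labelled and orange bars for the sitagliptin-labelled library, exact Poisson 95% intervals, and cell numbers in that order under each cluster. Krt15 is highest in cluster 16, Krt24 in cluster 6 and Krt75 in cluster 13, in both libraries.

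In this class 5 of 11 members were at least 1.5-fold apart, all higher in the sitagliptin-labelled library, against 6.01% of the 3296 genes that passed the filter (4.13% higher there). The median log2 ratio was 0.53 for the members and 0 for all. Besides Krt75, they were Krt78 at 28.6 and 51.9 CPM (1.81, 1.34 to 2.51), Krt77 at 1364 and 2433 CPM (1.78, 1.71 to 1.86), Krt79 at 230.3 and 399.9 CPM (1.74, 1.56 to 1.94) and Krt10 at 2224 and 3707 CPM (1.67, 1.61 to 1.73). These 4 genes had higher levels in other classes, and in both libraries each lay below its non-epithelial level (for Krt78 36.0 and 65.7 CPM, for Krt79 312 and 1062 CPM). Of the suprabasal marker list 15 of 16 genes were higher in the sitagliptin-labelled cells of this class (sums of 6214 and 8294 CPM), as were 9 of 12 upper follicle markers (1005 and 1609 CPM), and their part was not tested. By cluster the picture differed. Cluster 13 exceeded the non-epithelial level for Krt10 (7373 and 6355 CPM), Krt77 (4831 and 4296 CPM) and Krt78 (90.6 and 93.5 CPM), and there Krt10 and Krt77 were lower in the sitagliptin-labelled library (ratios 0.862 and 0.889). Its cells had medians of 16005.5 and 2747.5 UMIs, and its second-best name was suprabasal (score 0.159, beside 0.402 for the best). The part of doublets in these levels was not tested. In the other 3 clusters Krt10 and Krt77 were higher in the sitagliptin-labelled library and below the non-epithelial levels. Krt79 was higher in clusters 6, 13 and 18 and lower in cluster 16 (689 and 269.6 CPM, ratio 0.391). Without cluster 13, which had 18 PBS-labelled cells, Krt75 had a ratio that rounds up to 1.5 and was not called, and 3 members were called, Krt10, Krt77 and Krt79. With at most 5% mitochondrial UMIs, which left 23 PBS-labelled cells, the ratios of Krt10, Krt77 and Krt78 were 0.636, 0.738 and 0.939. In that setting 5 members were at least 1.5-fold apart, Krt24 (1.76), Krt79 (3.38) and Krt75 higher, and Krt10 and Krt1 (0.485, against 1.45 with all cells) lower. The share of all genes was not counted in that setting or without cluster 13, so these counts cannot be read as particular to keratins. The Krt75 ratio there, 84.9 (15.2 to 3356), rests on 1 PBS-labelled UMI. With clusters weighted equally Krt79 had a ratio of 1.13.

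The 12 members that passed the filter in at least 1 of the 4 classes had their highest level in the same class in both libraries. In that class their ratios had a median of 1.11 and ran from 0.917 to 2.84, with Krt75 the only one at least 1.5-fold apart. In the other classes where they passed, 25 ratios had a median of 1.26 and ran from 0.864 to 2.04, and 6 were at least 1.5-fold higher. By class, 2.04% to 6.01% of all genes under the filter were at least 1.5-fold apart. The 6 were in suprabasal-like and outer root sheath or bulge-like cells, where 2.88% and 4.13% of all genes were as much higher. Each of the 6 lay below the level of the non-epithelial classes together in the sitagliptin-labelled library. That depends on the class taken. Macrophage-like cells of that library (47 cells) had Krt10 at 2649, Krt77 at 1699, Krt5 at 3123 and Krt78 at 34.4 CPM, each lower than the called level. Their Krt15 (2566 CPM) and Krt79 (1066 CPM) were higher than the called levels. The grouping by highest class was made after the values were seen. Over the 10 clusters of keratinocyte classes and dividing cells with at least 50 cells per library, Krt10, Krt1 and Krt77 were higher in the sitagliptin-labelled library in 10 of 10 (cluster 13, with 18 PBS-labelled cells, is not among them), and Krt78 in 9 of the 9 with enough UMIs. Krt5 was higher in 9, Krt14 and Krt80 in 8, Krt79 and Krt24 in 6 and Krt15 in 5. Fewer clusters had enough UMIs for Krt75 (higher in 6 of 8) and Krt23 (higher in 4 of 6). These directions were not counted over all genes, so they cannot be read as particular to keratins. These clusters come from the same pair of libraries and are not replicates.

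**Figure D5:**
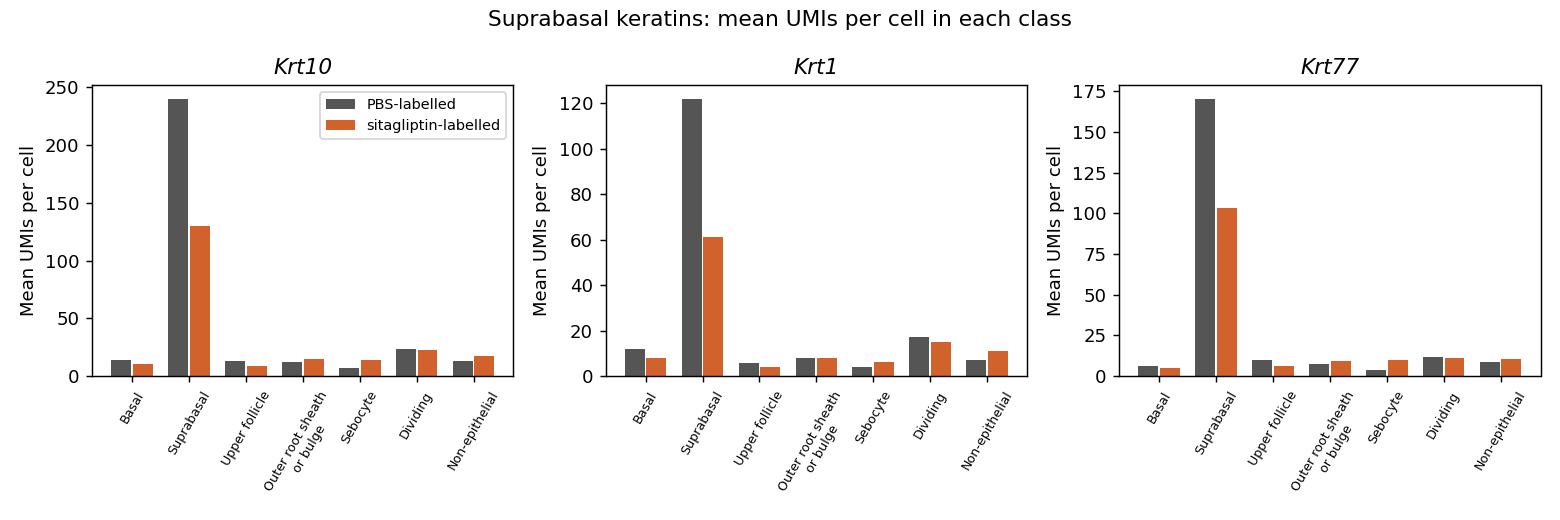
Mean UMIs per cell of Krt10, Krt1 and Krt77 in 6 epithelial classes and in the non-epithelial classes together, with grey bars for the PBS-labelled and orange bars for the sitagliptin-labelled library. Suprabasal-like cells stand far above the rest, and for Krt10 basal-like cells (13.8 and 10.3) are near the non-epithelial 12.9 and 17.6.

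The same genes were also counted per cell. Suprabasal-like cells averaged 239.9 and 130.2 Krt10 UMIs, 122 and 61.3 Krt1 UMIs, and 170.3 and 103 Krt77 UMIs, lower in the sitagliptin-labelled library as was their median depth (9548 and 3252 UMIs). Non-epithelial cells averaged 12.9 and 17.6 Krt10 UMIs, 7.16 and 11 Krt1 UMIs, and 8.53 and 10.6 Krt77 UMIs, higher in the sitagliptin-labelled library. Sebocyte-like cells, which make lipid and are not known for these keratins, had 6.77 and 14.4 Krt10 UMIs per cell. In CPM their Krt77 stood at 259 and 1352 (ratio 5.22), Krt10 at 496 and 2017 (4.07) and Krt1 at 293 and 890.1 (3.04), each below the non-epithelial level. Their basal keratins were closer between the libraries, with Krt14 at 3696 and 3904 CPM and Krt5 at 1626 and 1723 CPM. All but Krt14 in the PBS-labelled library lay below the non-epithelial levels here too. The unnamed cluster 0, almost all of it sitagliptin-labelled (20 and 5779 cells, median 1577 UMIs in that library), had a keratin share of 3.73% there, with Krt14 at 9479, Krt10 at 7614 and Krt77 at 4779 CPM side by side.

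The other 21 members did not reach 50 CPM with 20 UMIs in any of the 4 classes. Among the keratins of the inner root sheath, the layer that guides the growing hair, Krt27 had 36 and 29 UMIs, Krt28 27 and 28, Krt25 13 and 8, and Krt71 26 and 54. The unnamed cluster 17 (120 and 174 cells) was led by Dct, Cldn10 and Tyrp1. Its best scores were for melanocyte (0.207) and outer root sheath or bulge keratinocyte (0.188). It held 17 and 10 of the Krt27 UMIs, 10 and 3 of the Krt28 UMIs and 7 and 0 of the Krt25 UMIs. All 7 of the last came from 1 cell. The 3′ ends of Krt27 and Krt28 share 11.9% and 8.30% of their words with other members of this group. The 10 markers of the hair matrix and inner root sheath list summed to 551 and 591 CPM in basal-like, 654 and 715 CPM in suprabasal-like and 326 and 403 CPM in outer root sheath or bulge-like cells. Shh, Padi3 and Crym were at 0 in basal-like cells, Padi3 in suprabasal-like cells, and none of the 10 in outer root sheath or bulge-like cells.

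Hair shaft keratins, the hard keratins of the growing hair, were sparse. Krt32, a type I hair keratin, had 511 and 873 UMIs and was highest in upper follicle-like cells, at 31.1 and 26.7 CPM, above the non-epithelial 4.03 and 15.3 CPM. Krt31 had 35 and 51 UMIs, Krt33a 23 and 32, and Krt84 10 and 11. Krt35 (29 and 2 UMIs), Krt36 (28 and 1) and Krt83 (45 and 10) had most of their UMIs in the PBS-labelled library. Of the Krt36 UMIs, 23 lay in PBS-labelled fibroblast-like cells, as did 34 of the 43 PBS-labelled UMIs of Krt19, a type I keratin of simple epithelia and of follicle cells. The highest count of Krt36 in 1 cell was 5 and of Krt19 was 4, so neither came from a single cell. For Krt33a, 8 of the 23 PBS-labelled UMIs came from 1 upper follicle-like cell, and Krt83 had 8 of 45 in 1 such cell. The fibroblast-like class had 495 PBS-labelled and 58 sitagliptin-labelled cells, so the second library gives little depth for these genes there.

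The simple epithelial keratins were near the limit of detection. Krt7, a type II keratin of glands and ducts, had 172 and 262 UMIs, and its levels were 6.35 and 5.41 CPM in upper follicle-like and 4.75 and 5.37 CPM in dividing cells. Krt8 had 30 and 18 UMIs and its partner Krt18 14 and 10, spread over classes. Skin Merkel cells are the known source of this pair. No cluster was named for them. In basal-like cells 6 of 9 Merkel cell markers, Atoh1, Sox2 and Snap25 among them, were at 0 in both libraries, and all 9 summed to 1.21 and 1.2 CPM. The epidermal keratin Krt2 had 29 and 83 UMIs, 14 and 51 of them in suprabasal-like cells, and Krt9, a keratin of the footpad, had 10 and 12. Krt42 had 24 and 83 UMIs, of which 3 and 20 lay in cluster 18 (8.97 and 27.1 CPM). Krt222 (20 and 57), Krt12 (34 and 48) and Krt4 (16 and 33) were the rest, and none of these members allowed a comparison at this depth.

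Genes that work with keratins were set beside them. A list of 18 genes held some whose products link keratin filaments to each other or to junctions, and others, such as Sfn, Macf1 and Fam83h. Of its genes, 12 passed the filter in basal-like, 15 in suprabasal-like, 12 in upper follicle-like and 12 in outer root sheath or bulge-like cells. In suprabasal-like cells 1 was at least 1.5-fold apart, Dst, which encodes the dystonin that ties Krt5 and Krt14 filaments to hemidesmosomes, at 344 and 542 CPM (1.57, 1.52 to 1.63), beside 3.57% of all genes under that filter. Dst also belongs to the basal marker list. In the other 3 classes 0 were, beside 2.31%, 2.04% and 6.01% of all genes in basal-like, upper follicle-like and outer root sheath or bulge-like cells, and the median log2 ratios lay between -0.08 and 0.06. Dsp, which encodes the desmosomal anchor desmoplakin, was at 2037 and 2371 CPM in basal-like cells (1.16). Its ratio was 1.29 in suprabasal-like, 0.981 in upper follicle-like and 1.17 in outer root sheath or bulge-like cells. Of 12 regulators of keratin genes, 6, 11, 9 and 6 passed in the same order of classes. Of these 0 were at least 1.5-fold apart beside these same shares of all genes, and the median log2 ratios lay between -0.02 and 0.04. Trp63 had the largest ratio in basal-like (1.35), suprabasal-like (1.44) and upper follicle-like cells (1.25). In outer root sheath or bulge-like cells it had 1.23, and Gata3 the largest (1.42). The smallest ratios in the same order were those of Notch1 (0.848), Ovol1 (0.902), Cebpb (0.821) and Cebpb (0.818).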

How the data were processed

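Single-cell RNA was measured in 1 library per treatment. The deposited matrices hold whole-number UMI counts per gene and barcode, per the file headers, and the submitters' processing notes name Cell Ranger 3.1.0 and mm10. Other steps of the authors, such as the kit version and which transcript end was read, were not given in the sources used here. Barcodes numbered 10456 (PBS-labelled) and 22085, with 70729930 and 95047000 UMIs, and 39.9% and 16.8% of barcodes exceeded the mitochondrial limit.

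Retained cells were scaled to 10000 UMIs and clustered (scanpy 1.11.5, leidenalg 0.10.2) on 2000 variable genes without Krt genes, 30 principal components, 15 neighbours and a Leiden resolution of 1, which gave 28 clusters. Names came from 22 marker lists, with a lead of at least 0.1 in score and at least 3 markers detected in 10% of cells. A cluster also stayed unnamed when another broad type had over 0.6 of the score or its leading genes pointed to another class. The same held for low UMIs with no own marker among the leading genes. Cluster 15 (465 and 6 cells) scored highest for macrophage (2.4) but stayed unnamed for its leading genes. It is therefore in neither the macrophage-like nor the non-epithelial levels, and its keratin share was 1.11% and 0.796%. The doublet caller marked 2 and 0 cells, so it did not work and doublets remain. UMIs were summed per class and library, given as CPM with exact Poisson 95% intervals, and ratios have exact conditional binomial intervals. With 1 library per treatment there was no test. Members and lists were chosen with earlier results of these data known. A member was described by its values in each class where it had at least 50 CPM in either library and at least 20 UMIs, and otherwise by its total and the class or cluster holding many of its UMIs; partner genes were named where at least 1.5-fold apart. The calling step was tested on simulated counts; its requirement on interval coverage, first set for each class and fold size, was missed in 1 case and was then replaced by coverage pooled per class. Alternatives were another total, averaged single-cell CPM, thinning, other cell filters, Krt genes kept, other resolutions, clusters weighted equally, high doublet scores left out, no CPM minimum and, added after seeing the data, small clusters left out. Gene positions and 3′ ends came from Gencode vM21, matched to 30934 of 31053 gene IDs.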

Additional observations from a re-analysis of the deposited data

Results flagged for a closer look

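Among members that passed the filter, 2 had a ratio of at least 1.5 in 1 class and a ratio whose whole interval lay below 1 in another. Krt15 had a ratio of sitagliptin-labelled to PBS-labelled CPM of 2.04 in suprabasal-like cells, against 0.918 in basal-like, 0.928 in upper follicle-like and 0.959 in outer root sheath or bulge-like cells. Krt79 had a ratio of 1.74 in outer root sheath or bulge-like cells, against 0.864 in suprabasal-like and 0.917 in upper follicle-like cells. Another 2 had intervals on both sides of 1 with no ratio past 1.5-fold. Krt1 was at 0.946 in suprabasal-like cells, against 1.30 in basal-like, 1.2 in upper follicle-like and 1.45 in outer root sheath or bulge-like cells. Krt80 was at 0.926 (0.860 to 0.997) in upper follicle-like cells, against 1.26 in basal-like, 1.27 in suprabasal-like and 1.26 in outer root sheath or bulge-like cells. With 1 library per treatment, the difference between classes was not tested. The levels past 1.5-fold (1092 CPM for Krt15, 399.9 CPM for Krt79) lay below those of the non-epithelial classes of the sitagliptin-labelled library (2346 and 1062 CPM).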

How the results depend on the processing

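Of 37 ratios of named members, 18 kept their direction under all 13 alternatives, and of the 7 at least 1.5-fold apart 4 did. The exceptions were in outer root sheath or bulge-like cells at a limit of 5% mitochondrial UMIs (23 PBS-labelled cells left), where Krt10 was 0.636, Krt77 0.738 and Krt78 0.939. The share of all genes at least 1.5-fold apart was counted only under the reported setting, so the counts below have none beside them. Counts of members at least 1.5-fold apart moved as follows. In suprabasal-like cells (2 as reported) it was 1 with a total without mitochondrial, ribosomal and haemoglobin genes, with Krt genes kept, at resolution 2, with clusters weighted equally and with clusters under 50 cells left out, 0 at resolution 0.5 and 7 with no CPM minimum. In basal-like cells (0 as reported) it was 1 when the CPM of single cells were averaged, with thinned cells and without the 8% highest doublet scores, and 3 with no CPM minimum. In upper follicle-like cells (0 as reported) it was 1 with averaged CPM of single cells and with thinned cells, and 3 with no CPM minimum. In outer root sheath or bulge-like cells (5 as reported) it was 3 with clusters weighted equally (clusters of at least 20 cells per library) and with small clusters left out, 4 at resolution 2, 6 at resolution 0.5 and without high doublet scores, and 7 with at least 1000 genes and 2000 UMIs and with no CPM minimum (6 higher and 1 lower). There Krt75 ran from 1.13 (clusters weighted equally) to 84.9 (5% limit, 1 PBS-labelled UMI), Krt79 from 1.13 to 3.38 (the same settings) and Krt1 from 0.485 (5% limit) to 2.23 (without high doublet scores). Of the members within 1.5-fold as reported, Krt14 reached 1.55 without high doublet scores, Krt80 1.61 at resolution 0.5 and Krt24 1.76 at the 5% limit.

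The keratin share of UMIs (3.76% and 4.40%) was 5.30% and 6.02% with the other total, 3.61% and 3.98% thinned, 4.14% and 4.90% at the 5% mitochondrial limit, 3.77% and 4.45% at resolution 0.5, 3.86% and 4.41% at resolution 2, 3.79% and 4.43% without high doublet scores and 3.82% and 4.36% without small clusters. In the sitagliptin-labelled library alone it moved to 4.46% with at least 1000 genes and 2000 UMIs and to 4.39% with Krt genes kept. It was higher in the sitagliptin-labelled library under each of these. The cause of these shifts was not tested.

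No paired analysis was possible because each treatment has 1 library. No replicate could be left out. Depth limits the 21 less abundant members. Many levels of keratins outside their own layer could not be told from background by CPM, and their source was not tested.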
